A study of Mus musculus with 16 samples.

Results

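The genes described here are the 158 autosomal protein-coding genes of the mouse that span more than 500 kb and had reads in every labelled library of mouse embryonic stem cells. They were selected on gene span and on measured counts: a gene had to be present in all 3 deposited tables, to lie on chromosomes 1 to 19, to extend over more than 500000 bases from annotated start to end, and to hold at least 20 raw counts in each of the 14 libraries of newly made RNA. Of 25257 genes shared by the tables, 16474 were autosomal and protein-coding, and 215 of these exceeded the span. Of the 215, 54 fell under the count floor, and Tenm4, Ptprt and Hs6st3 passed both thresholds but were left out by name, as was Trappc9, which spans only 471584 bases. The floor was applied to the counts of mutant and WT libraries alike, so the selection rests partly on measured levels.

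The study asked how the coactivator complexes SAGA and ATAC affect RNA synthesis in E14 embryonic stem cells grown in serum with LIF, CHIR99021 and PD0325901. Newly made RNA was tagged with 4-thiouridine (4sU) for 15 min and purified, after foreign spike-in cells had been added. The mutants were AID-Tada3, AID-Yeats2 and AID-Zzz3, in which an auxin-inducible degron is fused to the named protein, and the knockout Supt7l-/-, with 2 clones of each. Every line, WT included, received auxin for 24 h, and each WT pair consisted of 1 plain WT library and 1 from WT with Tir1/BirA overexpression. AID-Tada3 was set against the WT pair of the first table, AID-Yeats2 and Supt7l-/- against that of the second, and AID-Zzz3 against that of the third. Total RNA was available for the 2 WT lines of the first table. Clones of 1 mutant are separate lines, but each WT pair mixes 2 lines, so p-values measure the spread between these libraries.

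Tada3 sits in the histone acetyltransferase modules of both complexes, Supt7l in the SAGA core, and Yeats2 and Zzz3 in ATAC. Very long genes consist almost wholly of introns, and RNA polymerase II needs hours to cross one, so a short pulse tags only a stretch of each transcript under way. Many of them encode adhesion molecules, ion channels and synaptic proteins that are used mainly in neurons, and several lie at common fragile sites, where replication and transcription of a very long unit can collide.

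The 158 genes spanned 501.75 to 4434.9 kb with a median of 734 kb, and 39 exceeded 1 Mb. In the GENCODE M21 annotation of GRCm38, the assembly also called mm10, which lists all 158 and gives 151 of them the deposited coordinates, the exons covered a median of 1.32% of the span, against 3.14% in genes of 200-500 kb and 49.2% in genes under 10 kb. The longest stretch without an exon had a median of 201 kb. Exonic length was a median of 10322 bases, compared with 8665.5 bases in genes of 200-500 kb. At least 1 gene on the opposite strand overlapped 143 of them, and 11 overlapped another protein-coding gene on the same strand. The widest, Gm20388 and Fgfr2 (the fibroblast growth factor receptor 2 gene), spanned 4434.9 and 2960.9 kb, held exon-free stretches of 4384 and 2815.5 kb, and overlapped 38 and 14 same-strand coding genes, so their values are uncertain. The other genes among the 5 largest were Ptprd at 2270.7 kb, Cntnap2 at 2245 kb and Lrp1b at 2058 kb, all encoding neuronal or cell-surface receptors and adhesion proteins.

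RefSeq start-site windows, 250 bases before to 50 after an annotated start, were matched by symbol for 118 of the 158 genes, and 45 of these had several starts. For the outermost start, the window held a median of 19.5 CG dinucleotides, against 22 in the 7687 matched shorter genes with the same count floor. At least 15 CG occurred in 69 of the long-gene windows (58.5%), against 77.1% in the shorter genes and 34.6% of all 32851 windows. The hexamer TATAAA, on either strand, was present in 9 long-gene windows (7.63%), in 5.97% of shorter genes and in 13.6% of all windows. The following 4 windows (RefSeq, GRCm38.p6, 5′ to 3′ along the gene, CG in capitals) belong to genes that changed in the mutants and are shown because they cover the range from CG-dense to CG-poor: Grip1 (chr10:119453784-119454083, plus strand, 38 CG), Exoc4 (chr6:33248878-33249177, plus strand, 13 CG), Slit3 (chr11:35121206-35121505, plus strand, 41 CG) and Pkhd1 (chr1:20618008-20618307, minus strand, 4 CG).
Grip1: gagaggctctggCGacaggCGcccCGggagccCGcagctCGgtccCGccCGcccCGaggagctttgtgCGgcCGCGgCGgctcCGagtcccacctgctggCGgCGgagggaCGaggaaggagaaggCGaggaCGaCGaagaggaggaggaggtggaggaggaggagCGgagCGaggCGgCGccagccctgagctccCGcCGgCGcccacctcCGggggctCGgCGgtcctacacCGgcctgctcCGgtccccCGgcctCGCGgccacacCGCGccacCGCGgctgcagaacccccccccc
Exoc4: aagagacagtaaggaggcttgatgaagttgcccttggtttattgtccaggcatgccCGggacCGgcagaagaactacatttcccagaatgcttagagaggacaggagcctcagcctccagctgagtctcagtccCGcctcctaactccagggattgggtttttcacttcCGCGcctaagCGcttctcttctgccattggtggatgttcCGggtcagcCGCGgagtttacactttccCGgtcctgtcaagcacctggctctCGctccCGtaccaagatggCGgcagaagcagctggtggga
Slit3: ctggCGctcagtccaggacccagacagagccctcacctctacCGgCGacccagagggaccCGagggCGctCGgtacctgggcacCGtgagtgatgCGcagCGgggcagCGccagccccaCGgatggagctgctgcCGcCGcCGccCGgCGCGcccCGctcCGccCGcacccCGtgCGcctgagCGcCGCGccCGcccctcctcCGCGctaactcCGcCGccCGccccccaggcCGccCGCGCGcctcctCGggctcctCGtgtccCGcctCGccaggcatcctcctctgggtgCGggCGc
Pkhd1: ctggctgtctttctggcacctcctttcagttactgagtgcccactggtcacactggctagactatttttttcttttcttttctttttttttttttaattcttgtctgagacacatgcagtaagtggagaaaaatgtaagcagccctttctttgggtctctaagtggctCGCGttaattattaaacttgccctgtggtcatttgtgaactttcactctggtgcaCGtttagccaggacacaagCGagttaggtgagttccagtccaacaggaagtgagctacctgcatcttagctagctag
Of these, Exoc4, Slit3 and Pkhd1 have 1 start in the table, and Grip1 has 3, of which the outermost is printed.

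Mouse gene counts ranged from 8268061 to 15994518 in the 14 labelled libraries and from 4903998 to 6378707 in the 2 libraries of total RNA. The 158 genes took 1.97% to 2.45% of the counts of a labelled library. Summed over the 6 of 7 listed genes that the tables hold, markers of embryonic stem cells stood between 2392 and 2934 CPM (counts scaled to a common library size) in every labelled library. Those of fibroblasts, neural cells and primitive endoderm each stayed under 41 CPM. The tables hold 4 of 6 listed neural markers and 6 of 6 for primitive endoderm. For fibroblasts they hold 5 of 6, and all 6 in the third table. The targeted genes were measured in RNA, which does not report degradation of an AID-tagged protein. Tada3 stood at 12.2 and 10.5 CPM in AID-Tada3 against 31.3 and 23.9 CPM in WT, and Zzz3 at 288 and 299.8 CPM in AID-Zzz3 against 430.3 and 448 CPM in WT. Yeats2 stood at 109 and 188 CPM in AID-Yeats2, against 242 and 256 CPM in WT. Supt7l stood at 8.87 and 14.1 CPM in Supt7l-/-, against 13.9 and 14.3 CPM in WT (adjusted p = 0.479), so total counts of this gene did not separate the knockout clones, and where the deletion lies is not given in the labels.

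Labelled RNA of the 158 genes covered a wide range in the 6 WT libraries, which are 2 lines in 3 tables, each table scaled separately. The median log2 CPM of the 158 was 3.90 and 4.04 in WT of the first table. It was 4.75 and 4.71 in the second, and 4.70 and 4.63 in the third. An SD over the 6 libraries therefore includes differences between tables. Mean levels ran from 2.3 to 2817 CPM, with a median of 24.7 CPM. Per kilobase of the deposited median transcript length, the 5 highest were Exoc4 (1643 CPM per kb), which encodes a subunit of the exocyst that tethers secretory vesicles, Ptprg (695 CPM per kb), a receptor tyrosine phosphatase, Fars2 (616 CPM per kb), the mitochondrial phenylalanyl-tRNA synthetase, Etl4 (556 CPM per kb) and Smyd3 (487 CPM per kb), a lysine methyltransferase. The 5 lowest were Astn2 (0.497 CPM per kb), Malrd1 (0.576 CPM per kb), Lrrc4c (0.741 CPM per kb), Cdh12 (0.877 CPM per kb) and Cntn5 (0.909 CPM per kb), of which Astn2, Lrrc4c, Cdh12 and Cntn5 encode neuronal adhesion or migration proteins. Whether intronic reads entered the deposited counts is not given in the sources used here, so levels per transcript length compare these genes only under that limit; per 100 kb of span the range was 0.18 to 389 CPM.

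Exoc4 had 2817 ± 342 CPM over the 6 WT libraries (SD, n = 6 libraries of 2 lines). By library it had 2439, 2709, 3179, 3255, 2489 and 2829 CPM. It spans chr6:33249085-33973979. The gene list for common fragile sites, drawn from textbook knowledge with results of these data already known, held 23 of the 158 genes, and Exoc4 was the highest of them by level. The others included Smyd3 at 599 ± 50.4 CPM and Wwox, an oxidoreductase gene, at 328 ± 76.4 CPM. Another was Fhit, a dinucleotide hydrolase gene, at 29 ± 8.03 CPM (SD for each, n = 6 libraries of 2 lines). The lowest was Ctnna3 at 2.83 ± 0.7 CPM. Fhit stood at 14 CPM in the plain WT library and 30 CPM in the Tir1/BirA library of the first table, 31.7 and 37.1 CPM in the second, and 27.6 and 33.6 CPM in the third. Malrd1 and Tmem132d were the only 2 of the 158 that differed more than 1.5-fold between the WT lines with the same sign in all 3 tables; both were lower in the Tir1/BirA line, and neither was called in a mutant.

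Compared with total RNA, labelled RNA held more of these genes. The labelled and total libraries of the 2 WT lines gave a median log2 fold change of 1.35 over the 158 genes, with quartiles of 0.96 and 1.82, against 0.05 over all 14494 genes tested. Of the 158, 109 were called higher and 2 lower (edgeR quasi-likelihood test, adjusted p under 0.05), beside 30.4% of all genes called higher and 33% called lower. Since the count floor was set on labelled RNA, which this contrast also uses, these counts are a description. Median labelled over total log2 fold changes by gene span were -1.70 under 10 kb, -0.57 at 10-30 kb and 0.46 at 30-100 kb. They were 1.33 at 100-200 kb and 1.63 at 200-500 kb, so the genes over 500 kb lay below the class of 200-500 kb. Genes over 500 kb also had a lower median level in labelled RNA, 26.8 CPM against 94.8 CPM at 200-500 kb. By level, the 158 had medians of 1.06 under 10 CPM, 1.31 at 10-100 CPM and 1.77 above 100 CPM. The part of level in the order of the span classes was not tested. Total RNA was depleted of ribosomal RNA and labelled RNA was not, and the 2 kinds were fragmented differently, so the levels of the 2 kinds are relative to different pools.

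**Figure D1:**
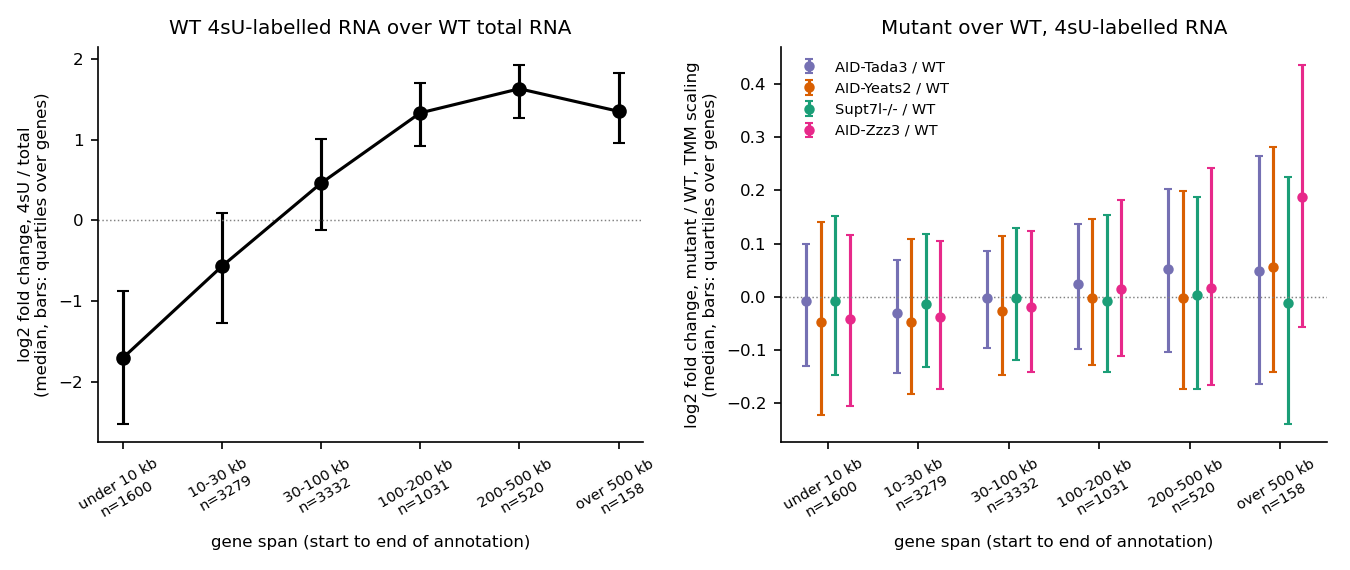
Log2 fold change by class of gene span for autosomal protein-coding genes with at least 20 counts in every labelled library (n under each class). Left, WT labelled over WT total RNA, whose median was -1.70 in genes under 10 kb and 1.35 in those over 500 kb; right, each mutant over its WT with TMM scaling, where AID-Zzz3 had the highest median over 500 kb, 0.19. Points are medians and bars quartiles over genes, not over libraries.

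The genes richest in labelled RNA relative to total RNA were Mast4, a microtubule-associated kinase, Car10, a carbonic anhydrase-related protein, Ctnnd2, a catenin, Psd3, an exchange factor for Arf6, and Dscam, an adhesion receptor, with log2 fold changes of 2.36, 2.35, 2.34, 2.34 and 2.25. Mast4 had 134 and 198 CPM in labelled RNA against 29.95 and 34.8 CPM in total RNA. At the other end stood Grm8, a metabotropic glutamate receptor gene. Grm8 had 8.07 and 5.27 CPM in labelled RNA against 59.9 and 100.8 CPM in total RNA, a log2 fold change of -3.59 ± 0.32 (SE). Both labelled libraries lay below both total libraries. Other low values were those of Lrrc4c, Lrp1b and Cpq, a carboxypeptidase gene, at -0.55, -0.52 and -0.02. Total RNA was shallow for this purpose, and 58 of the 158 genes had fewer than 20 counts in at least 1 of its libraries.

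**Figure D2:**
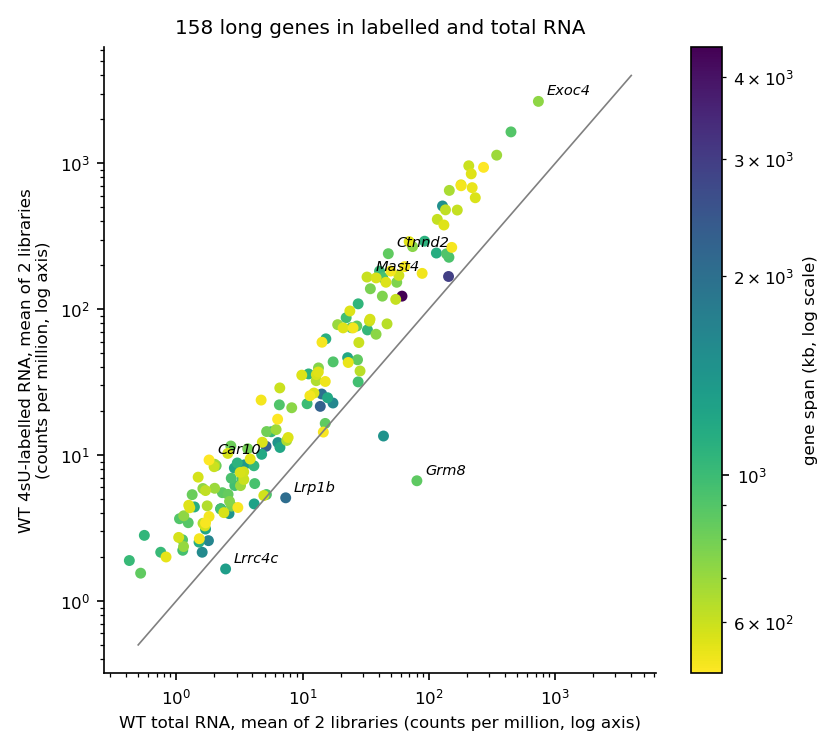
Level of the 158 genes in WT labelled RNA (vertical) against WT total RNA (horizontal), means of 2 libraries each in CPM on log axes, coloured by gene span; the line marks equal levels. Most genes lie above the line, and Grm8, Lrrc4c and Lrp1b lie below it.

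In AID-Yeats2, 18 of the 158 genes rose and 8 fell against WT (edgeR quasi-likelihood test, Benjamini-Hochberg adjusted p under 0.05, scaled with TMM on mouse genes). Among all 14513 genes tested, 3.92% were called higher and 3.32% lower, whereas 11.4% of the long genes were called higher and 5.06% lower. In either direction 16.5% of the 158 were called, close to the 16.2% of genes of 200-500 kb. The median log2 fold change was 0.06 over the 158 genes and 0.00 over all genes. Scaling to the spike-in genes moved the median of all genes to -0.50 and that of the 158 to -0.44, and then 0 of them were called higher and 40 lower, beside 0.407% and 23.5% of all genes. Rises below are therefore rises relative to the other mouse genes: of the 18, 14 kept a positive log2 fold change under spike-in scaling, while all 8 lower ones stayed lower.

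Of the 45 genes for adhesion and guidance, the longest of the lists, 11 rose and 1 fell. The rises were 24.4% of the list, against 11.4% of the 158 and 3.92% of all genes. Under spike-in scaling 0 of the 45 were higher and 10 lower, beside 0.407% and 23.5% of all genes. Of the 18 rises among the 158, 8 were in genes that averaged under 10 CPM. The part of level in the share of this list was not tested. Thsd7b, a membrane protein with thrombospondin repeats, had 13.0 and 14.1 CPM in AID-Yeats2 against 7.44 and 6.95 CPM in WT (0.91 ± 0.18 SE, adjusted p = 0.00589 by edgeR). Both mutant libraries lay above both WT libraries. Ptprm, a receptor tyrosine phosphatase, had 46.5 and 40.1 CPM in AID-Yeats2 against 27.0 and 31.0 CPM in WT (0.58 ± 0.12 SE, adjusted p = 0.00787 by edgeR). Sgcz, a sarcoglycan, had 172 and 182 CPM in AID-Yeats2 against 116 and 143 CPM in WT (0.45 ± 0.09 SE, adjusted p = 0.00708 by edgeR). Again the groups did not overlap, although with spike-in scaling the log2 fold change of Sgcz was -0.04. The 1 adhesion gene that fell was Tenm3, a teneurin of synaptic matching, with 524 and 535 CPM in AID-Yeats2 against 724 and 659 CPM in WT (-0.39 ± 0.07 SE, adjusted p = 0.00273 by edgeR).

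Outside that group, Grip1 had the smallest adjusted p of all 158 genes in any mutant. Grip1 encodes a PDZ-domain scaffold that binds AMPA receptors, spans chr10:119453830-120087261, and is the first of the printed windows. It had 228 and 235 CPM in AID-Yeats2 against 124 and 135 CPM in WT, a log2 fold change of 0.84 ± 0.09 (SE, adjusted p = 0.000106 by edgeR). Exoc4 had 4089 and 4239.8 CPM in AID-Yeats2 against 3179 and 3255 CPM in WT (0.37 ± 0.05 SE, adjusted p = 0.000586 by edgeR), which became -0.12 under spike-in scaling. For both genes the 2 clones lay closer to each other than to either WT library. Nav3, a microtubule-binding navigator protein, had 13.3 and 12.1 CPM in AID-Yeats2 against 5.41 and 6.09 CPM in WT (1.14 ± 0.18 SE, adjusted p = 0.00177 by edgeR). Macrod2, an enzyme that removes ADP-ribose, had 57.0 and 51.1 CPM in AID-Yeats2 against 41.4 and 32.1 CPM in WT (0.55 ± 0.12 SE, adjusted p = 0.0128 by edgeR). Nav2, a relative of Nav3, fell, with 50.5 and 61.3 CPM in AID-Yeats2 against 69.5 and 83.4 CPM in WT (-0.45 ± 0.11 SE, adjusted p = 0.0271 by edgeR). Among regulators of transcription and splicing, Zbtb20, a zinc-finger repressor, fell to 164 and 178 CPM in AID-Yeats2, against 234 and 209 CPM in WT (-0.37 ± 0.08 SE, adjusted p = 0.00812 by edgeR). Celf2, an RNA-binding splicing regulator, fell to 70.5 and 84.7 CPM in AID-Yeats2, against 103 and 94.8 CPM in WT (-0.35 ± 0.09 SE, adjusted p = 0.0353 by edgeR). Each of these genes was separated in all 4 libraries.

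The counts of calls changed when 1 library was left out. Each such fit left 1 library in a group, which is assumed to vary like the others. These counts therefore do not show that a single library carried the calls. Shares over all genes in these fits were not counted, so the counts are a description only. Leaving out AID-Yeats2 replicate 1 left 4 genes higher and 0 lower, and leaving out replicate 2 left 6 and 4. Without WT replicate 1 the counts were 31 and 16, and without WT replicate 2 they were 29 and 21. Grip1, Exoc4 and Nav3 were called in each of these 4 fits. DESeq2 gave an adjusted p for 24 of the 26 calls and did not call 11 of them, among them Nav2 (0.0509), Celf2 (0.085), Slit3 (0.101), Immp2l (0.0547) and Pde4d (0.094).

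**Figure D3:**
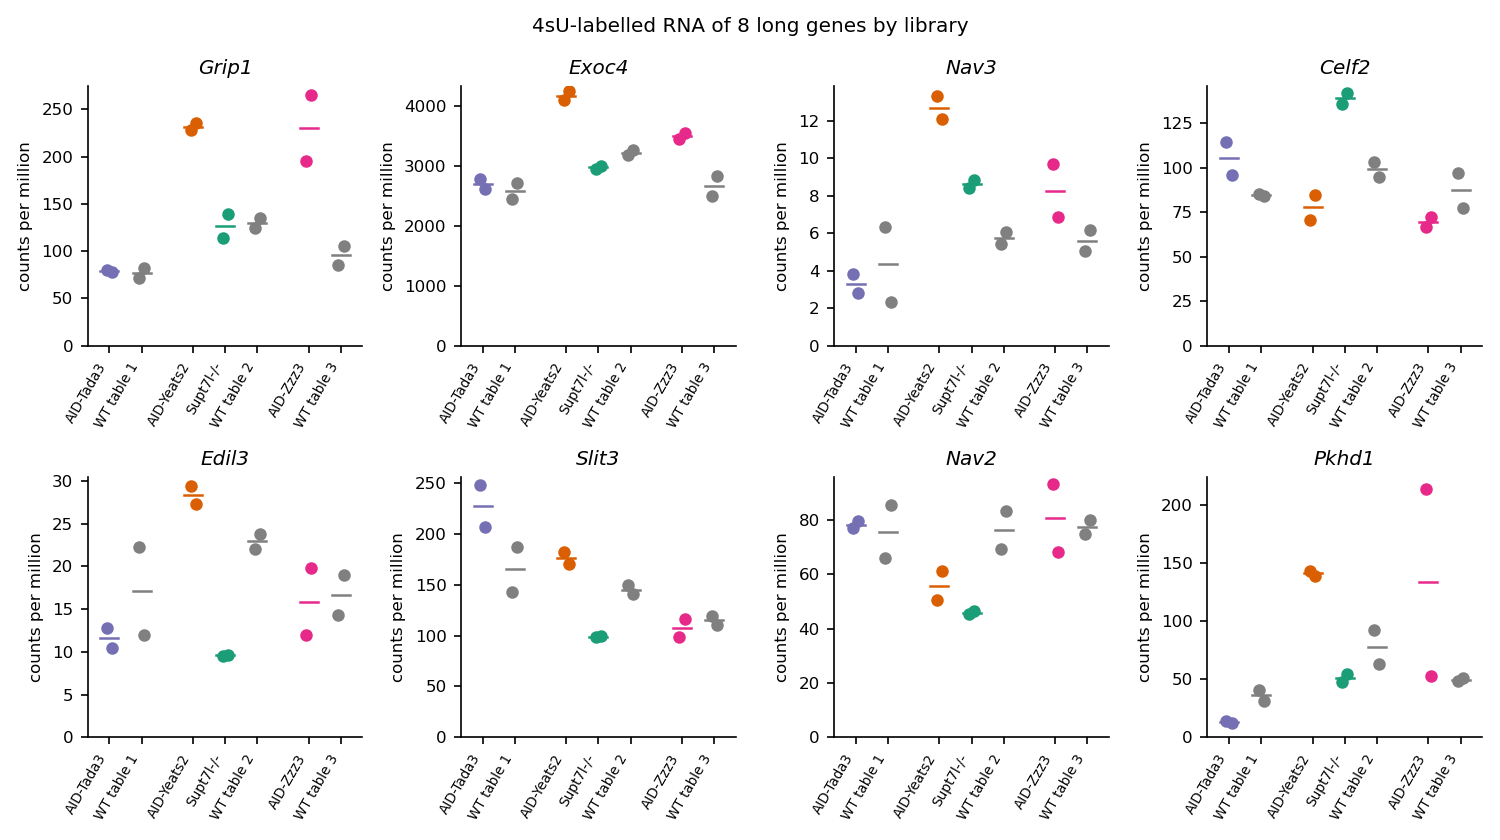
Labelled RNA of 8 of the long genes in CPM by library; each dot is a library, each bar the mean of 2, and each mutant stands left of the WT pair of its own table. Grip1 is higher in AID-Yeats2 and AID-Zzz3 than in their WT pairs, Edil3 is lower in Supt7l-/-, Slit3 is higher in AID-Yeats2 and lower in Supt7l-/-, and the 2 AID-Zzz3 libraries of Pkhd1 stand far apart at 214 and 53.2 CPM.

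In AID-Zzz3, 4 of the 158 genes rose and 0 fell (edgeR quasi-likelihood test, adjusted p under 0.05), beside 0.681% of all 14529 genes called higher and 0.303% called lower. At an unadjusted p under 0.05 the count was 34 of the 158 (21.5%), against 12.9% of all genes. DESeq2 called 10 higher and 1 lower, for which the share over all genes was not counted. The median log2 fold change of the 158 was 0.19, with quartiles of -0.06 and 0.44, against 0.00 over all genes, and 107 of the 158 values were positive. In genes of 200-500 kb the median was 0.02, and 3.27% of them were called in either direction, against 2.53% of the 158. Under spike-in scaling the median of all genes was -0.36 and that of the 158 was -0.18, with 5 called higher and 34 lower, beside 0.888% and 24.7% of all genes. The median of the 158 lay above that of all genes on both scales, and its sign depended on the scaling.

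The 4 called genes have roles at synapses, in the matrix and in chromatin. Grip1 had 195 and 265 CPM in AID-Zzz3 against 85.6 and 106 CPM in WT, a log2 fold change of 1.27 ± 0.17 (SE, adjusted p = 0.022 by edgeR). Anks1b, an ankyrin-repeat protein of the postsynaptic density, had 79.5 and 118 CPM in AID-Zzz3 against 36.4 and 24.5 CPM in WT (1.70 ± 0.25 SE, adjusted p = 0.0428 by edgeR). Hdac9, a class IIa histone deacetylase, had 14.7 and 17.7 CPM in AID-Zzz3 against 6.74 and 6.91 CPM in WT (1.25 ± 0.19 SE, adjusted p = 0.0285 by edgeR). In all 3 both mutant libraries exceeded both WT libraries. Adamtsl1, a secreted matrix protein, had 97.7 and 86.6 CPM in AID-Zzz3 against 46.9 and 55.0 CPM in WT (0.85 ± 0.12 SE, adjusted p = 0.0249 by edgeR), and it shares its strand with the coding gene Sh3gl2 inside its span. All 4 remained higher with adjusted p under 0.05 under spike-in scaling, where the log2 fold changes were 0.91 for Grip1, 1.32 for Anks1b, 0.89 for Hdac9 and 0.50 for Adamtsl1. None of the 4 passed in every fit that left out a library. Adjusted p by edgeR ranged from 0.0194 to 0.0733 for Grip1 (highest without WT replicate 1), from 0.0459 to 0.127 for Anks1b (without WT replicate 2), from 0.00889 to 0.125 for Hdac9 (without AID-Zzz3 replicate 2) and from 0.000704 to 0.179 for Adamtsl1 (without AID-Zzz3 replicate 1).

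The AID-Zzz3 clones differed from each other. Without AID-Zzz3 replicate 1 the median of the 158 genes was 0.09, and without replicate 2 it was 0.23. Pkhd1, the fibrocystin gene of primary cilia, had 214 and 53.2 CPM in AID-Zzz3 against 48.2 and 50.8 CPM in WT (adjusted p = 0.613 by edgeR). Fhit had 85.2 and 35.4 CPM in AID-Zzz3 against 27.6 and 33.6 CPM in WT (adjusted p = 0.475 by edgeR). For both genes 1 clone exceeded both WT libraries by more than the other clone did. The summed markers of neural cells stood at 40.7 CPM in the first AID-Zzz3 library and 24 CPM in the second, against 25.7 to 26.2 CPM in WT; their part in these values was not tested.

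Exoc4 and Nav3, which rose in AID-Yeats2, were not called in AID-Zzz3. Exoc4 had 3439.6 and 3544 CPM in AID-Zzz3 against 2489 and 2829 CPM in WT (0.39, adjusted p = 0.149 by edgeR). Tenm3 had 459 and 549 CPM in AID-Zzz3 against 754 and 710.5 CPM in WT (-0.54, adjusted p = 0.0857 by edgeR). The groups did not overlap for Exoc4 or Tenm3, and each value had the sign it had in AID-Yeats2. Of the 26 genes called in AID-Yeats2, 23 had the same sign in AID-Zzz3, 16 higher and 7 lower, beside 121 of all 158 (76.6%) and 74.3% of shorter genes. These comparisons share no library, although both use the same 2 WT lines. Over the 158 genes the log2 fold changes correlated with Pearson r of 0.67 and Spearman rho of 0.66, and over the 9762 shorter genes with 0.71 and 0.63. These are correlations across genes, which are not independent replicates, and shorter genes gave values of similar size. Between Supt7l-/- and AID-Zzz3 the Pearson r over the 158 genes was -0.03.

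In Supt7l-/-, 11 of the 158 genes rose and 11 fell against WT (edgeR quasi-likelihood test, adjusted p under 0.05), beside 1.32% of all 14513 genes called higher and 2.02% called lower. The share called in either direction was 13.9% of the 158 and 10.6% of genes of 200-500 kb. The median log2 fold change was -0.01 over the 158 and 0.00 over all genes. Under spike-in scaling the median of all genes moved to -0.36 and that of the 158 to -0.37, with 1 called higher and 17 lower, beside 0.22% and 4.45% of all genes. Of the 11 rises, 10 stayed positive under that scaling, and all 11 falls stayed negative.

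Among extracellular and receptor genes, Edil3, an integrin-binding matrix protein at chr13:88821472-89323223, fell to 9.55 and 9.69 CPM in Supt7l-/-, against 22.0 and 23.8 CPM in WT (-1.25 ± 0.14 SE, adjusted p = 0.000553 by edgeR). Ntrk3, the receptor for neurotrophin-3, fell to 31.1 and 37.7 CPM in Supt7l-/-, against 61.0 and 72.1 CPM in WT (-0.95 ± 0.12 SE, adjusted p = 0.000991 by edgeR). These were the 2 genes called in every fit that left out a library. Slit3, a secreted ligand of Robo receptors, fell to 98.2 and 99.9 CPM in Supt7l-/-, against 149.99 and 140.4 CPM in WT (-0.55 ± 0.08 SE, adjusted p = 0.00124 by edgeR). Ptprk, a receptor tyrosine phosphatase, fell to 578 and 604.5 CPM in Supt7l-/-, against 712 and 757 CPM in WT (-0.31 ± 0.06 SE, adjusted p = 0.0141 by edgeR). Robo1, 1 of the receptors of Slit ligands, rose to 379 and 397 CPM in Supt7l-/-, against 326 and 327 CPM in WT (0.25 ± 0.06 SE, adjusted p = 0.0406 by edgeR), and its log2 fold change was -0.10 under spike-in scaling. In each of the 5 the clones lay outside the WT pair.

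Of 18 channel and synaptic genes, 3 rose and 3 fell in Supt7l-/-. The called share was 33.3%, against 13.9% of the long genes and 3.33% of all genes. Under spike-in scaling 0 of the 18 were higher and 4 lower. On that scale 11.4% of the long genes and 4.67% of all genes were called in either direction. Trpm3, a cation channel, fell to 16 and 12.9 CPM in Supt7l-/-, against 27.1 and 30.9 CPM in WT (-1.0 ± 0.14 SE, adjusted p = 0.00142 by edgeR), and Dpp6, an auxiliary subunit of Kv4 potassium channels, and Nkain3 were the other falls. Dpp6 had 29.5 and 33.5 CPM in Supt7l-/- against 70.3 and 105 CPM in WT (-1.47 ± 0.21 SE, adjusted p = 0.026 by edgeR). The rises were Grid1, a delta glutamate receptor, and the potassium channels Kcnma1 and Kcnq5, with log2 fold changes of 0.39, 0.71 and 0.90. Among signalling and cytoskeletal genes, Nav2 fell to 45.3 and 46.5 CPM in Supt7l-/-, against 69.5 and 83.4 CPM in WT (-0.73 ± 0.11 SE, adjusted p = 0.00355 by edgeR). Elmo1, a partner of Dock proteins in Rac activation, fell to 47.0 and 45.3 CPM in Supt7l-/-, against 63.9 and 74.5 CPM in WT (-0.58 ± 0.10 SE, adjusted p = 0.00627 by edgeR). Both genes were below WT in both clones. Cdk14, a cyclin-dependent kinase, rose to 13.2 and 15.8 CPM in Supt7l-/-, against 6.96 and 7.05 CPM in WT (1.05 ± 0.18 SE, adjusted p = 0.00577 by edgeR). Ccser1, a fragile site gene, rose to 72.3 and 67.1 CPM in Supt7l-/-, against 49.7 and 41.8 CPM in WT (0.61 ± 0.10 SE, adjusted p = 0.00492 by edgeR). Celf2 rose to 136 and 142 CPM in Supt7l-/-, against 103 and 94.8 CPM in WT (0.49 ± 0.09 SE, adjusted p = 0.00918 by edgeR). Here too no clone fell within the WT pair.

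Leaving out Supt7l-/- replicate 1 or replicate 2 left 0 of the long genes higher and 3 lower. Without WT replicate 1 the counts were 35 higher and 28 lower, and without WT replicate 2 they were 16 and 21. DESeq2 did not call 6 of the 22 genes, among them Adamtsl1 (adjusted p = 0.0525), Kcnma1 (0.0936) and Robo1 (0.116). With 1 library left in a group, that library is assumed to vary like the others. How many of all genes were called in these fits was not counted, so the counts are a description only. The summed fibroblast markers were 1.48 and 1.58 CPM in Supt7l-/- against 6.86 and 7.27 CPM in WT of the same table, carried by Col1a1 and Col1a2, with Dcn at 0 in WT. In AID-Yeats2 they ranged from 0.914 to 10.5 CPM. Primitive endoderm markers summed to 17.5 to 22.9 CPM in Supt7l-/- against 11.5 to 13.1 CPM in WT, and embryonic stem cell markers to 2392 to 2440 CPM in Supt7l-/- against 2732 to 2879 CPM in WT. The part of these differences in the calls was not tested; in bulk RNA, fewer cells of a type and less RNA per cell cannot be told apart.

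In AID-Tada3, 1 of the 158 genes fell and 0 rose (edgeR quasi-likelihood test, adjusted p under 0.05), beside 0.0331% of all 15099 genes called lower and 0% called higher. At an unadjusted p under 0.05 the count was 29 of the 158 (18.4%), against 8% of all genes. DESeq2 called 1 higher and 2 lower, for which the share over all genes was not counted. The gene that fell was Pkhd1, with 13.9 and 12.6 CPM in AID-Tada3 against 40.9 and 31.1 CPM in WT, a log2 fold change of -1.44 ± 0.16 (SE, adjusted p = 0.0246 by edgeR). Both clones lay below both WT libraries, but over the 4 fits that left out a library adjusted p by edgeR ranged from 1.52e-26 to 0.862, and the call was lost without AID-Tada3 replicate 1 (0.563) and without replicate 2 (0.862). The WT libraries of this table differed for several long genes: Ank2, an ankyrin adaptor, had 38.1 and 31.6 CPM in AID-Tada3 against 135 and 30.7 CPM in WT, and Tmem132d, a membrane protein, had 12.3 and 10.2 CPM in AID-Tada3 against 47.6 and 15.3 CPM in WT. Leaving out WT replicate 2 raised the counts to 29 higher and 25 lower, and leaving out WT replicate 1 gave 9 and 4. For these fits the shares over all genes were not counted, so the counts are a description only. The median log2 fold change was 0.05 over the 158 and -0.00 over all genes. Spike-in scaling moved these to -0.11 and -0.16, with 4 called higher and 7 lower, beside 0.172% and 1.48% of all genes.

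The authors' deposited table gave adjusted p-values for 158 of these genes in AID-Tada3, 128 in AID-Yeats2, 109 in Supt7l-/- and 115 in AID-Zzz3. At an adjusted p under 0.05, the authors' deposited table had 0 higher and 1 lower in AID-Tada3, 0 and 49 in AID-Yeats2, 1 and 23 in Supt7l-/-, and 6 and 30 in AID-Zzz3. Shares over all genes in the authors' values were not counted, so these counts are a description only. Under the spike-in scaling used here, 1.48%, 23.5%, 4.45% and 24.7% of all genes were called lower in the same order of mutants. The median log2 fold changes in the authors' deposited table were -0.02, -0.34, -0.29 and -0.12 in the same order, closer to those under spike-in scaling than under TMM for AID-Yeats2, Supt7l-/- and AID-Zzz3.

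**Figure D4:**
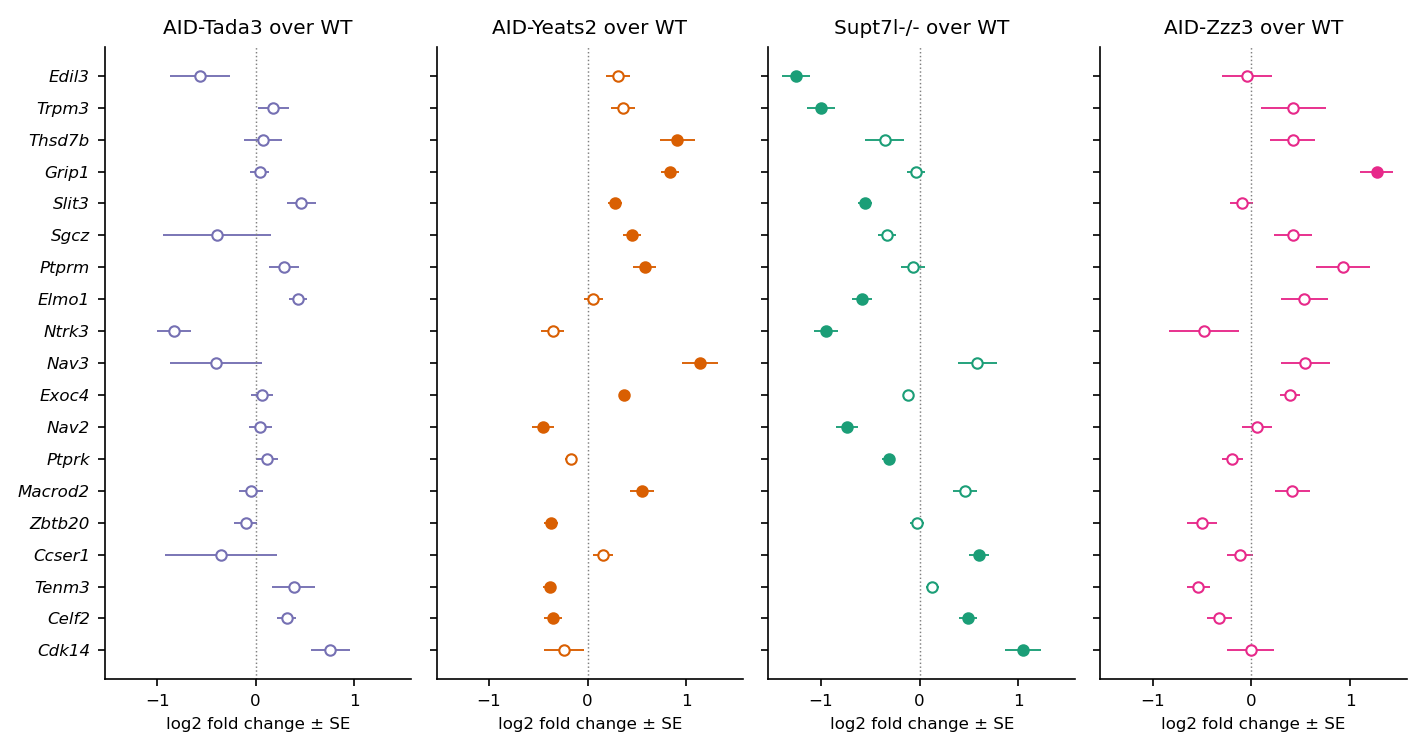
Log2 fold change ± SE of 19 of the 20 long genes with the smallest adjusted p in any mutant, by mutant over its own WT with TMM scaling; filled points have adjusted p under 0.05. Grip1 is filled in AID-Yeats2 (0.84) and AID-Zzz3 (1.27), and Nav2 is filled on the lower side in both AID-Yeats2 (-0.45) and Supt7l-/- (-0.73).

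In all, 47 of the 158 genes were called in at least 1 mutant, and 6 of them in 2. The matching shares over all genes were not counted, so these counts are a description only. None of the 5 largest genes was called in any mutant; the log2 fold changes of Cntnap2 were -0.63 in AID-Tada3, -0.26 in AID-Yeats2, -0.02 in Supt7l-/- and -0.47 in AID-Zzz3, and those of Ptprd were 0.70, -0.07, -0.30 and 0.09 in the same mutants. Grip1 rose in AID-Yeats2 and AID-Zzz3, and Adamtsl1 rose in Supt7l-/- and AID-Zzz3. Nav2 fell in AID-Yeats2 and Supt7l-/-, and Nav2, Slit3 and Celf2 were not called by DESeq2 in AID-Yeats2, nor was Adamtsl1 in Supt7l-/-. Pkhd1 fell in AID-Tada3 and rose in AID-Yeats2, where it had 143 and 139 CPM against 92.4 and 62.8 CPM in WT (0.86 ± 0.17 SE, adjusted p = 0.0327 by edgeR). Slit3 rose in AID-Yeats2 and fell in Supt7l-/-, and Celf2 fell in AID-Yeats2 and rose in Supt7l-/-; AID-Yeats2 and Supt7l-/- share their WT pair. The rise of Slit3 in AID-Yeats2 was 0.28 ± 0.07 (SE, adjusted p = 0.0332 by edgeR) and became -0.22 under spike-in scaling.

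Set directly against each other, AID-Yeats2 and Supt7l-/- differed in 53 of the 158 genes: 32 were higher in AID-Yeats2 and 21 lower (edgeR quasi-likelihood test, adjusted p under 0.05), beside 8.95% and 7.32% of all 14513 genes. Together the calls made up 33.5% of the 158, close to the 32.3% of genes of 200-500 kb. The median log2 difference was 0.08 over the 158 and -0.01 over all genes. Under spike-in scaling 13 were higher and 13 lower, beside 2.29% and 2.69% of all genes. Of 45 adhesion and guidance genes, 13 were higher and 3 lower (35.6%, close to the 33.5% of all 158), and 5 and 2 under spike-in scaling. Of 18 channel and synaptic genes, 6 were higher and 4 lower (55.6%), and 4 and 4 under spike-in scaling. Edil3 had 29.4 and 27.3 CPM in AID-Yeats2 against 9.55 and 9.69 CPM in Supt7l-/-, a log2 difference of 1.56 ± 0.14 (SE, adjusted p = 1.55e-05 by edgeR). Slit3 had 182 and 171 CPM in AID-Yeats2 against 98.2 and 99.9 CPM in Supt7l-/- (0.83 ± 0.07 SE, adjusted p = 1.55e-05 by edgeR). Celf2 had 70.5 and 84.7 CPM in AID-Yeats2 against 136 and 142 CPM in Supt7l-/- (-0.84 ± 0.09 SE, adjusted p = 5.92e-05 by edgeR). These 3 differences kept adjusted p under 0.05 under spike-in scaling, at 1.42, 0.69 and -0.97. For Nav2 the difference of 0.28 ± 0.12 (SE) was not called (adjusted p = 0.113 by edgeR).

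The medians differed with the level of the gene. Of the 158 genes, 51 averaged under 10 CPM over the 14 labelled libraries, 63 lay between 10 and 100 CPM and 44 above 100 CPM. In AID-Zzz3 the median log2 fold changes of these classes were 0.33, 0.16 and -0.08, and in AID-Yeats2 they were 0.23, 0.05 and -0.06. Shorter genes of the same classes had medians of 0.04, -0.03 and -0.04 in AID-Zzz3, and of 0.03, -0.05 and -0.04 in AID-Yeats2. In the lowest class 44 of 51 long genes were positive in AID-Zzz3 (86.3%) and 39 in AID-Yeats2 (76.5%), against 56.4% and 53.9% of shorter genes. The same class had medians of 0.03 in Supt7l-/- and 0.02 in AID-Tada3. All 8 calls of this class in AID-Yeats2 were rises, whereas in AID-Zzz3 the class had 0 calls. Calls of the 2094 shorter genes under 10 CPM also leaned to rises, with 59 higher and 13 lower in AID-Yeats2 and 7 and 0 in AID-Zzz3. Under spike-in scaling the median of the 51 low long genes was -0.02 in AID-Zzz3 and -0.28 in AID-Yeats2, against -0.32 and -0.47 in the shorter genes.

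Sums over the low long genes are given beside those of a class of genes that embryonic stem cells hardly use. Olfactory receptor genes named Olfr, chosen after the values were seen, summed to 121 and 105.5 CPM in AID-Yeats2 and 91.3 and 86.6 CPM in Supt7l-/-, against 91.6 and 98.6 CPM in WT. They summed to 110 and 116 CPM in AID-Zzz3 against 84.9 and 109 CPM in WT, and to 73.2 and 63.1 CPM in AID-Tada3 against 72 and 77.8 CPM in WT. The 51 low long genes summed to 357.5 and 339.8 CPM in AID-Yeats2, 294 and 311 CPM in Supt7l-/-, and 290.2 and 270.2 CPM in WT. In the third table they summed to 359.8 and 332 CPM in AID-Zzz3 against 274.5 and 270.3 CPM in WT, and in the first table to 229.8 and 221.3 CPM in AID-Tada3 against 228.3 and 200.8 CPM in WT. Both AID-Yeats2 and both AID-Zzz3 libraries exceeded their WT pair in both sums, whereas in Supt7l-/- both libraries exceeded WT in the long genes and neither did in the olfactory receptor genes. The part of the olfactory receptor counts in the values of the long genes was not tested.

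**Figure D5:**
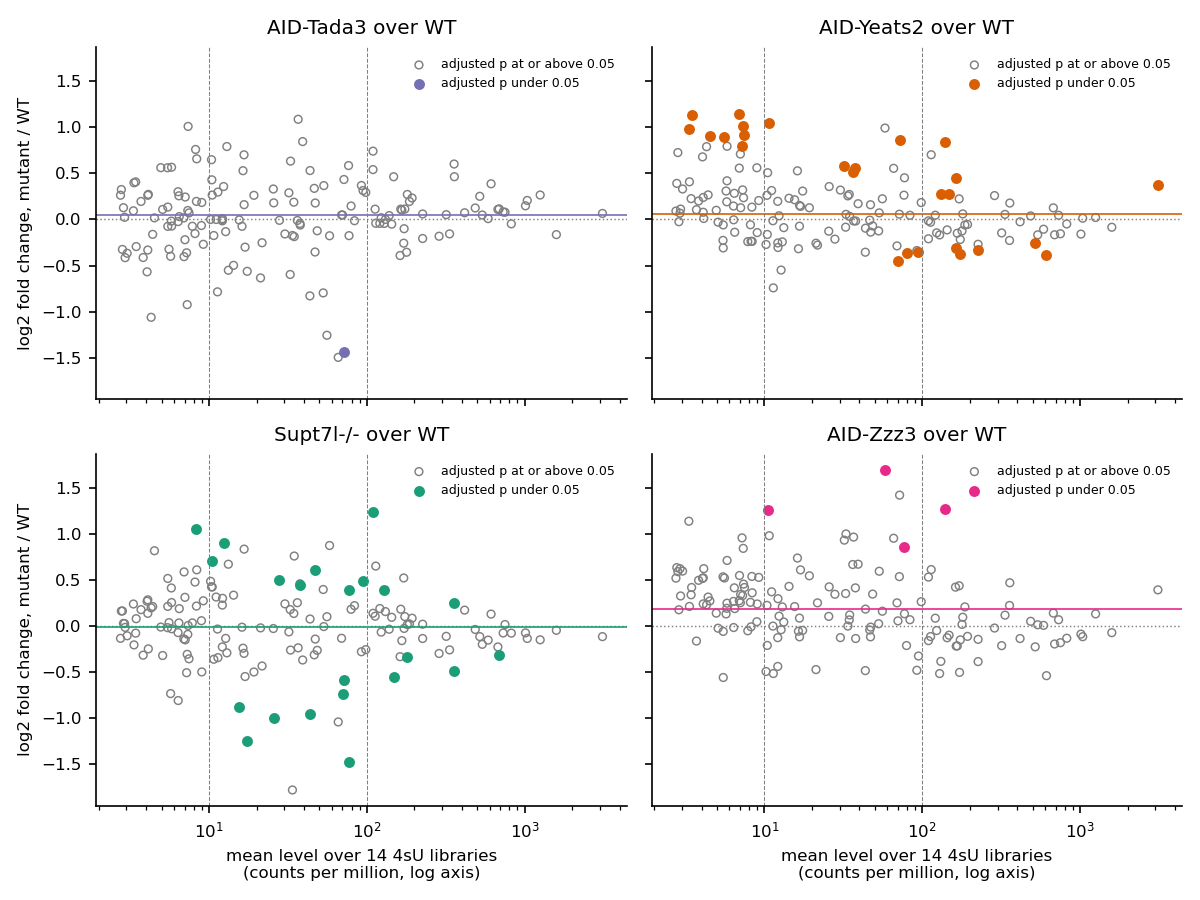
Log2 fold change of each of the 158 genes in the 4 mutants over WT (vertical, TMM scaling) against its mean level over 14 labelled libraries (horizontal, CPM on a log axis). Filled points have adjusted p under 0.05, the solid line is the median of the 158 genes, 0.19 in AID-Zzz3 and 0.06 in AID-Yeats2, and dashed lines mark 10 and 100 CPM; the points left of 10 CPM lie mostly above 0 in AID-Zzz3 and AID-Yeats2.

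By function, from lists that overlap and cover 124 of the 158 genes, the other groups are given beside the shares called over all genes (7.24% in AID-Yeats2, 3.33% in Supt7l-/-) and over the 158 (16.5% and 13.9%). Kinase, GTPase and phosphodiesterase genes had 1 lower of 23 in AID-Yeats2 (Pde4d, a cAMP phosphodiesterase, 4.35%) and 1 higher and 2 lower in Supt7l-/- (Cdk14, Elmo1 and Ntrk3, 13.0%). Transcription and chromatin genes had 1 lower of 11 in AID-Yeats2 (Zbtb20), 1 lower in Supt7l-/- (Auts2) and 1 higher in AID-Zzz3 (Hdac9), or 9.09% in each of AID-Yeats2 and Supt7l-/-. Auts2, linked to Polycomb complexes, had 260.4 and 273 CPM in Supt7l-/- against 326 and 423 CPM in WT (-0.49 ± 0.11 SE, adjusted p = 0.039 by edgeR). Trafficking and cytoskeleton genes had 2 higher and 1 lower of 16 in AID-Yeats2 (Exoc4, Nav3 and Nav2, 18.8%). The list for metabolic enzymes, which also holds the exocyst gene Exoc4, had 2 higher and 1 lower of 16 (Exoc4, Macrod2 and Immp2l, 18.8%). The same 3 calls recur in the fragile site list below. In Supt7l-/- the trafficking list and the metabolic list each had 12.5% called. The 3 RNA-binding genes included Celf2 as the only 1 called. Of the 23 fragile site genes, 2 rose and 1 fell in AID-Yeats2 (Exoc4, Macrod2 and Immp2l, a mitochondrial peptidase), 1 rose and 1 fell in Supt7l-/- (Ccser1 and Auts2), and 0 were called in AID-Tada3 or AID-Zzz3. The called share was 13.0% in AID-Yeats2 and 8.7% in Supt7l-/-, below that of the 158 in both. Under spike-in scaling 0 of the 23 were higher and 6 lower in AID-Yeats2, 0 and 2 in Supt7l-/-, 3 and 0 in AID-Tada3 and 1 and 5 in AID-Zzz3. The shares of all genes were 0.407% and 23.5%, 0.22% and 4.45%, 0.172% and 1.48%, and 0.888% and 24.7% in the same order. Those of the 158 were 0% and 25.3%, 0.633% and 10.8%, 2.53% and 4.43%, and 3.16% and 21.5%. The TMM medians of the 23 were 0.05 in AID-Yeats2, -0.02 in Supt7l-/-, 0.01 in AID-Tada3 and 0.22 in AID-Zzz3, against 0.06, -0.01, 0.05 and 0.19 for all 158.

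Of 34 genes that encode topoisomerases, elongation factors, U1 proteins and others known to act in transcription of long genes, 0 rose in any mutant under TMM or spike-in scaling. In AID-Yeats2, 3 fell: Smc1a, a cohesin subunit, by 0.60, Snrnp70, a protein of the U1 particle, by 0.49, and Ssrp1, a subunit of the FACT histone chaperone, by 0.45 on the log2 scale (adjusted p = 0.0029, 0.00134 and 0.011 by edgeR). In Supt7l-/-, Top2a, a topoisomerase of dividing cells, fell by 0.32 (adjusted p = 0.0353 by edgeR). None was called in AID-Tada3 or AID-Zzz3. The 3 are 8.82% of the 34 and the 1 is 2.94%, beside 3.32% of all genes lower in AID-Yeats2 and 2.02% in Supt7l-/-. Spike-in scaling changed these counts. Of the 34, 18 were then lower in AID-Yeats2, 1 in Supt7l-/-, 1 in AID-Tada3 and 25 in AID-Zzz3, with 0 higher in each. Of all genes, 23.5%, 4.45%, 1.48% and 24.7% were called lower in the same order. The shares of the 34 were larger than these in AID-Yeats2, AID-Tada3 and AID-Zzz3, and smaller in Supt7l-/-. The TMM medians of the 34 were -0.09 in AID-Yeats2, -0.06 in Supt7l-/-, 0.00 in AID-Tada3 and -0.06 in AID-Zzz3, and the spike-in medians -0.58, -0.42, -0.15 and -0.43 in the same order of mutants.

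At the span threshold, the nearest genes inside were Edil3, Dock1 and Car10 at 501751, 502985 and 503721 bases, and the nearest outside were Pde1c, Abca13 and Prkce at 499299, 492317 and 490134 bases. In AID-Zzz3 the log2 fold changes of the inner 3 were -0.05, -0.09 and -0.49, and those of the outer 3 were 0.48, 0.76 and 0.50. At the count floor, Cntn5, Fam19a1 and March1 had a lowest count of 20, and Dpp10, Pcdh15 and Gabrg3 missed it with 19, 19 and 18. Their AID-Zzz3 log2 fold changes were 0.42, 0.18 and 0.21 inside, and 0.66, 0.21 and 1.07 outside. Of the genes left out by name, Ptprt, a receptor tyrosine phosphatase, had a log2 fold change of 1.89 in AID-Zzz3 (adjusted p = 0.0071 by edgeR) and 0.75 in AID-Yeats2 (adjusted p = 0.0327 by edgeR), and Tenm4, a teneurin, had -0.62 in Supt7l-/- (adjusted p = 0.000267 by edgeR). Trappc9, a vesicle-tethering subunit, had -0.31 in AID-Yeats2 (adjusted p = 0.0308 by edgeR), and Hs6st3, a heparan sulfate sulfotransferase, was called in no mutant. Why these 4 were left out is not given in the selection.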

How the data were processed

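Labelled RNA from 14 libraries and total RNA from 2 libraries of mouse embryonic stem cells was analysed in 3 deposited tables. Per the submitters' processing notes, the tools included DESeq2 1.16.1, the aligners STAR 2.5.3a and Bowtie2 2.2.8, the read counter HTSeq 0.6.1p1, the trimmer cutadapt 1.10 and bcl2fastq 2.17.1.14, with no order or role stated, and the builds included mm10 and genomes of the spike-in species. Per the file headers, the deposited tables give raw counts per gene, which were used for all tests. Whether the authors counted exons or whole gene bodies is not given in the sources used here. The normalized signal columns the authors deposited, which are counts scaled per library, were not used for tests. The log2 fold changes and adjusted p-values the authors deposited are quoted only as from their table, and gene positions and transcript lengths come from the same deposited tables.

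Counts were fitted with edgeR 4.0.16 (quasi-likelihood, robust, filterByExpr with a minimum count of 10, TMM scaling) in R 4.3.3, with Benjamini-Hochberg adjustment over all genes tested and a threshold of 0.05. AID-Yeats2, Supt7l-/- and their WT were fitted together. The alternatives were spike-in scaling, DESeq2 1.42.0 as size factors or as a test, other filters, leaving out each library, a replicate block and other thresholds for span and counts. The fit was tested on simulated counts. Levels are CPM, counts divided by the TMM-scaled library size. Total gene counts were 8268061 to 15994518 per labelled library, and low counts limit precision for the lowest genes.

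The WT labelled and total libraries come from the same 2 lines, and their deviations from the group means correlated with r = 0.49. The genes and gene lists were chosen with earlier results of these data known. Named are the 5 largest genes, the 20 with the smallest adjusted p in any mutant, the 5 highest and 5 lowest by level per length and by labelled over total RNA, fragile site genes, and genes next to the thresholds. Other called genes (Robo1, Dpp6, Nkain3, Grid1, Kcnma1, Kcnq5, Pde4d and those called only in AID-Zzz3 or AID-Tada3) and Ank2 and Tmem132d were chosen after their values were seen. Promoter sequences are from RefSeq. Some genes that these rules name are not reported here.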

Additional observations from a re-analysis of the deposited data

Results flagged for a closer look

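Of the 53 long genes that differed between AID-Yeats2 and Supt7l-/- by a direct test (edgeR quasi-likelihood test, Benjamini-Hochberg adjusted), 6 are given here: the 5 with the smallest adjusted p, and those that were also called against WT in both mutants. The log2 difference, AID-Yeats2 minus Supt7l-/-, was 1.56 for Edil3 (adjusted p = 1.55e-05 by edgeR), 1.36 for Trpm3 (3.1e-05), 0.87 for Grip1 (4.85e-05), 0.83 for Slit3 (1.55e-05), 0.49 for Exoc4 (4.57e-05) and -0.84 for Celf2 (5.92e-05). Both AID-Yeats2 libraries lay above both Supt7l-/- libraries for Edil3 and Slit3, and below them for Celf2.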

How the results depend on the processing

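Counts are given as higher and lower. Shares over all genes were counted only for TMM and spike-in scaling, so the other counts in this section are a description only. Spike-in scaling gave 4 and 7 with a median of -0.11 in AID-Tada3, 0 and 40 with -0.44 in AID-Yeats2, 1 and 17 with -0.37 in Supt7l-/-, a lower count of 34 with -0.18 in AID-Zzz3, and 13 and 13 with -0.0619 between AID-Yeats2 and Supt7l-/-. It reversed the sign of Sgcz (-0.0377), Exoc4 (-0.12), Slit3 (-0.22) and Rims1 (-0.22) in AID-Yeats2 and of Robo1 (-0.10) in Supt7l-/-. Without the filter the counts were 10 and 7 in AID-Tada3, 18 and 21 in Supt7l-/- and 22 and 4 in AID-Zzz3, with 13 lower in AID-Yeats2. DESeq2 gave 1 and 2 in AID-Tada3, 10 and 1 in AID-Zzz3, and 2 lower in AID-Yeats2; of the edgeR calls with a DESeq2 adjusted p, it did not call 11 of 24 in AID-Yeats2 and 6 of 22 in Supt7l-/-. Requiring at least 50 counts in every tested library moved the medians to 0.14 in AID-Zzz3, 0.0356 between AID-Yeats2 and Supt7l-/- and 1.69 for labelled over total RNA. A selection floor of 50 counts kept 115 genes. This left 9 higher and a median of -0.0166 in AID-Yeats2, a median of 0.0691 in AID-Zzz3, and 21 higher with a median of 0.0088 between AID-Yeats2 and Supt7l-/-. Genes over 300 kb numbered 372. They gave 41 and 28 in AID-Yeats2, 21 and 34 in Supt7l-/-, 11 and 3 with a median of 0.13 in AID-Zzz3, 77 and 48 between AID-Yeats2 and Supt7l-/-, and a median of 1.53 for labelled over total RNA. The cause of these differences was not tested, beyond the larger set of genes in the last.

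Leaving out 1 library at a time gave 0 to 29 higher and 0 to 25 lower in AID-Tada3, 4 to 31 and 0 to 21 in AID-Yeats2, 0 to 35 and 3 to 28 in Supt7l-/-, 2 to 12 and 0 to 3 in AID-Zzz3, and 16 to 20 and 7 to 14 between AID-Yeats2 and Supt7l-/-. The medians ranged over 0.0276 to 0.092 in AID-Tada3, 0.0376 to 0.0928 in AID-Yeats2, -0.0397 to 0.0576 in Supt7l-/-, 0.0921 to 0.2253 in AID-Zzz3, 0.0389 to 0.0929 between AID-Yeats2 and Supt7l-/-, and 1.18 to 1.57 for labelled over total RNA. A replicate block on clone numbers gave 48 higher and 34 lower between AID-Yeats2 and Supt7l-/-. The numbers do not pair these clones (r = 0.04), whereas blocking on the WT line gave 1.35 for labelled over total RNA. With DESeq2 size factors the counts of calls against WT were as with TMM, and 33 rather than 32 genes were higher between AID-Yeats2 and Supt7l-/-.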
